A study of Mus musculus with 15 samples.

Results

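CD4 single-positive thymocytes lacking the kinase Tak1 were compared with post-selected double-positive thymocytes, to see which of the changes that accompany the step from the double-positive (DP) to the CD4 single-positive stage still occurred without Tak1. The comparison used the 3 arrays labelled Tak1_Mut_SM&M1 and the 3 labelled PostDP, which are 6 of the 15 arrays of the series. They were chosen by their labels. PostDP cells were CD69+TCRβ+ DP thymocytes sorted from B2m-/- mice, which lack β2-microglobulin and so positively select MHC class II-restricted CD4 cells. Tak1_Mut_SM&M1 cells were Qa2-CD69+ CD4 single-positive thymocytes (stages named SM and M1) from Tak1f/f CD4Cre mice, in which Cre driven by Cd4 regulatory sequences removes Tak1 from the DP stage on. The cells with Tak1 were those of the 3 SM&M1 arrays, also sorted as Qa2-CD69+, from Rag2-GFP BAC transgenic mice. PreDP (CD69-TCRβ- DP cells, B2m-/-) and M2 (Qa2+CD69- CD4 single-positive cells, Rag2-GFP) made up the remaining 6 arrays. All mice were young adult C57BL/6. Mouse line and stage therefore changed together in every comparison with PostDP and cannot be told apart. Tak1_Mut_SM&M1 and SM&M1 also differed in mouse line, which cannot be told apart from the loss of Tak1 between them. The words with and without Tak1 below name these groups. For the Rag2-GFP mice the labels describe a gate on GFP and a dump channel of NK1.1, CD25 and GL3 against NKT cells, regulatory T cells, γδ T cells and recirculating cells. They give no such gates for the Tak1f/f CD4Cre or B2m-/- sorts. The labels call the replicates biological and do not name the animals. The p-values below therefore reflect how these samples vary, which may be technical.

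A DP thymocyte whose T cell receptor engages self peptide on MHC is positively selected, ends recombination and coreceptor CD8 expression if it commits to the CD4 lineage, and moves to the medulla under CCR7. Newly formed CD4 cells are then licensed to survive, respond to cytokines and leave the thymus through KLF2 and its target S1PR1. TAK1, encoded by Map3k7, is the kinase through which T cell receptor and tumour necrosis factor receptors activate the IKK complex, and so NF-kB, and the JNK and p38 kinases. Tonic type I interferon signalling in the medulla raises a set of antiviral genes in maturing thymocytes.

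Levels below are log2(signal + 16), in which a difference of 1 is a 2-fold change and low genes are understated. Calls use an adjusted p below 0.05 (limma over all 15 arrays, Benjamini-Hochberg over 11871 genes). Map3k7 gave 4.76, 6.07 and 5.35 in the Tak1_Mut_SM&M1 arrays against 10.24, 10.31 and 9.69 in PostDP and 10.40, 10.46 and 10.42 in SM&M1, with no overlap. The difference from PostDP was -4.69 (SE 0.29, adjusted p = 1e-06), in the direction of the label. B2m read 10.03 to 10.17 in PostDP and 13.88 to 14.06 in Tak1_Mut_SM&M1, and this contrast is that of the mouse lines' B2m genotype, although B2m is counted among the rises below. The probe set shared by the Qa2 genes H2-Q7 and H2-Q9 averaged 8.79 ± 1.07 (SD, n = 3) in Tak1_Mut_SM&M1. It averaged 8.99 ± 0.60 in PostDP and 12.32 ± 0.28 in SM&M1, although both CD4 single-positive groups were sorted as Qa2-. Whether these groups match in maturity within that gate was not tested. Cd4 was 11.38, 11.50 and 11.02 in the Tak1-deficient arrays and 12.02, 12.14 and 12.50 in SM&M1, a difference of -0.92 (SE 0.19, adjusted p = 0.0284 in limma). Against PostDP the Cd4 difference was -0.17 (adjusted p = 0.572).

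Replicate 2 of Tak1_Mut_SM&M1 stood apart from all other arrays. Its median signal was 167.81, against 80.52 to 121.46 in the other arrays. Its Actb 3'-to-5' probe set ratio was 1.62 against 1.02 to 1.18, and it correlated with the other 2 arrays of its group at 0.818 and 0.832, where those 2 correlated at 0.976. Its Xist level was 14.01, against 7.54 and 7.42 in replicates 1 and 3, and Eif2s3y went the other way (4.33 against 11.38 and 11.49), so the mouse sex differed within the group. Within PostDP, Xist was 13.99, 7.60 and 13.72, and the SM&M1 arrays were high for both genes (Xist 13.28 to 13.78, Eif2s3y 9.62 to 10.62). The main counts and those of the gene lists are therefore given with and without it.

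Of the genes tested, 850 (7.16%) were called higher and 442 (3.72%) lower in Tak1_Mut_SM&M1 than in PostDP, and 452 and 214 of these had changed at least 2-fold. Without replicate 2 the counts were 1199 (10.1%) higher and 577 (4.86%) lower, and 727 higher and 376 lower genes were called in both fits. The median over all genes was 0.10. Counts of the gene lists below are to be read beside the shares of all genes called. A count near such a share does not set a list apart. SM&M1 against the same 3 PostDP arrays had 931 (7.84%) higher and 492 (4.14%) lower, or 1654 (13.9%) and 1072 (9.03%) in the fit without replicate 2, whose spread is smaller. The total of 1292 genes fell to 778, 726 and 674 when PostDP replicate 1, 2 or 3 was left out, and to 176 when just PostDP and Tak1_Mut_SM&M1 were in the fit.

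Most of the strong changes from PostDP to SM&M1 were also called in the cells without Tak1. Of 552 genes that rose at least 2-fold in SM&M1 against PostDP, 343 (62.1%) were also called higher in Tak1_Mut_SM&M1. Of 244 that fell at least 2-fold, 149 (61.1%) were also called lower. The shares without replicate 2 were 421 of 635 rises (66.3%) and 167 of 291 falls (57.4%). Both comparisons share the 3 PostDP arrays, so these shares carry no test. The sum of 492 shared calls fell to 323 without PostDP replicate 3. The test of a difference between Tak1_Mut_SM&M1 and SM&M1 is their direct contrast, in which PostDP cancels but mouse line and described gates differ. It called 51 genes (0.43%) higher and 150 (1.26%) lower, or 114 (0.96%) and 233 (1.96%) without replicate 2. By it, 78 of the 552 rises (14.1%) and 16 of the 244 falls (6.56%) were smaller without Tak1. Of those 78 rises, 25 were still called against PostDP and 53 were not. The remaining 156 rises and 86 falls were called in neither contrast of Tak1_Mut_SM&M1 and are undecided. Without replicate 2, 105 rises and 29 falls were smaller. The 94 genes with a smaller change became 55, 38 and 42 when SM&M1 replicate 1, 2 or 3 was left out.

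Among the rises seen without Tak1 were genes of cytokine response, homing and lineage choice. Ccnd2, which encodes cyclin D2, read 13.65, 14.32 and 13.42 in Tak1_Mut_SM&M1, 9.32, 9.47 and 9.58 in PostDP and 13.72, 13.81 and 14.01 in SM&M1. Both CD4 single-positive groups lay far above PostDP and overlapped each other. The rise was 4.34 (SE 0.20, adjusted p = 8.26e-08) without Tak1 and 4.39 with it, and the direct difference was -0.05 (adjusted p = 0.903). Il7r, the receptor chain for the survival cytokine interleukin-7, read 13.35, 13.00 and 13.20 without Tak1 and 13.01, 13.29 and 13.45 with it, against 9.83, 10.37 and 10.56 in PostDP. Its rises were 2.93 (SE 0.26) and 2.99. Ccr7, the medulla-homing receptor, read 12.82, 13.19 and 12.25 against 10.02, 9.85 and 9.97 in PostDP, a rise of 2.81 (SE 0.27, adjusted p = 4.35e-05) beside 3.01 in SM&M1. Both genes are also NF-kB targets.

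Zbtb7b, which encodes the CD4 lineage factor ThPOK, read 10.96, 11.15 and 10.55 in Tak1_Mut_SM&M1 and 8.76, 9.28 and 9.69 in PostDP. It rose by 1.64 (SE 0.24, adjusted p = 0.000991) without Tak1 and by 1.69 with it. Runx3, better known as the CD8 lineage factor, also rose in both, by 1.06 and 1.09. Myb, which acts upstream in CD4 lineage choice, read 10.48, 9.07 and 11.47 without Tak1 against 13.37, 13.38 and 13.20 in PostDP, and fell by 2.98 on the log2 scale (SE 0.53, adjusted p = 0.00367). Of 22 CD4 and CD8 lineage genes tested, 3 were called higher and 3 lower without Tak1, against 5 and 5 with it. These were 4 and 4, against 6 and 7, with replicate 2 left out. The sialyltransferase gene St8sia6 rose by 1.01 without Tak1 and 2.54 with it, and that gap passed the direct test (-1.54, adjusted p = 0.00154).

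The largest rises in Tak1_Mut_SM&M1 included several cytokine genes and receptors. Il21, a cytokine of helper T cells, read 9.83, 7.74 and 9.72 against 4.31, 4.50 and 4.97 in PostDP (4.50, SE 0.44, adjusted p = 5.48e-05), with replicate 2 the lowest of its group. Csf2, which encodes GM-CSF, read 8.98, 7.13 and 8.86 against 4.52, 4.18 and 4.33, a rise of 3.98 where SM&M1 rose by 2.80. The direct difference of Csf2 was 1.18 (adjusted p = 0.215), and 1.78 (adjusted p = 0.0245) without replicate 2. Il6ra, the interleukin-6 receptor chain, rose by 3.86 (SE 0.44) without Tak1 and 5.43 with it, with a direct difference of -1.57 (adjusted p = 0.0962). A second Il6ra probe set rose by 1.21 and 0.56. Igfbp4, an insulin-like growth factor binding protein gene of maturing thymocytes, read 13.05, 10.06 and 12.33 against 8.30, 8.28 and 8.15, so its rise was 3.57 with replicate 2 and 4.44 without. Gpr153, an orphan receptor gene, rose by 3.69, the orphan receptor gene Gpr83 by 2.71, the costimulatory receptor gene Icos by 1.15, and Cish, which a STAT5 signal induces, by 1.88. Of 28 cytokine receptor and SOCS genes tested, 5 were called higher and 4 lower in each of the comparisons with PostDP. With replicate 2 left out these stayed at 5 and 4 without Tak1 and were 8 and 5 with it. Of 24 survival and cell death genes, Bcl2 rose by 1.04 (another Bcl2 probe set differed by -0.27) and the kinase gene Pim2 by 1.54, while the pro-apoptotic genes Bcl2l11, Bmf and Pmaip1 fell by 1.28, 0.87 and 1.63 on the log2 scale. These were the 2 higher and 3 lower calls of that list, and 3 and 3 were called with replicate 2 left out. Of all genes tested, 7.16% were called higher and 3.72% lower, so the higher calls of this list stood near that share.

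**Figure D1:**
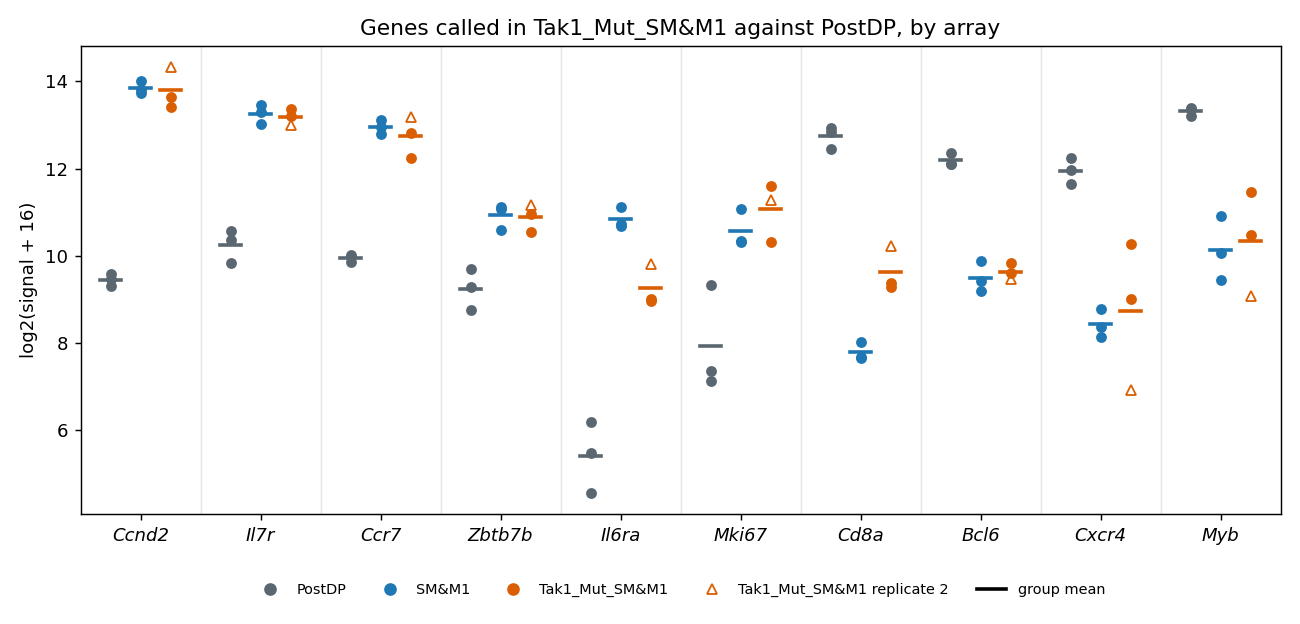
Level of 10 genes called in Tak1_Mut_SM&M1 against PostDP, as log2(signal + 16) on the y axis, 1 point for each array and a bar for each group mean of 3 arrays, with Tak1_Mut_SM&M1 replicate 2 as an open triangle. Both CD4 single-positive groups lie on the same side of PostDP for each of the 10 genes, and Il6ra and Cd8a lie between PostDP and SM&M1 in the Tak1-deficient arrays.

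Part of the DP identity genes fell without Tak1. Of 35 DP stage genes tested, 12 were called lower and 1 higher in Tak1_Mut_SM&M1, with a median of -0.78, against 18 lower and a median of -1.19 in SM&M1. With replicate 2 left out, 11 were called lower without Tak1 (median -0.58) and 21 with it. Cd8a, a CD8 coreceptor chain, read 9.28, 10.22 and 9.38 without Tak1, 8.03, 7.68 and 7.65 with it, and 12.93, 12.83 and 12.45 in PostDP. The 3 groups did not overlap. Cd8a fell by 3.11 on the log2 scale without Tak1 (SE 0.43, adjusted p = 0.000751) and by 4.95 with it, and the direct difference of 1.84 missed the threshold (adjusted p = 0.0510). That was the lowest adjusted p of any of the 35 genes in the direct contrast. Cd8b1, the other CD8 chain, differed from PostDP by -2.16 without Tak1 and -2.89 with it (direct adjusted p = 0.0592).

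Bcl6, a repressor high in DP cells, read 9.60, 9.47 and 9.83 against 12.09, 12.11 and 12.35, and fell by 2.56 on the log2 scale without Tak1 (SE 0.19, adjusted p = 5.96e-06) beside 2.69 with it. A second Bcl6 probe set differed from PostDP by -1.29 without Tak1 and -2.27 with it. Mpp4, a scaffold gene, had the largest fall of the named genes after Map3k7, with 4.62, 5.55 and 6.26 against 9.74, 10.26 and 9.85 (-4.47). It is counted in the DP list, but its mean was 6.03 in PreDP against 9.95 in PostDP. Cxcr4, the receptor that holds DP cells in the cortex, read 9.01, 6.93 and 10.27 against 11.64, 12.25 and 11.96 (-3.22, adjusted p = 0.00433). Its Tak1-deficient arrays were widely spread but all lay below PostDP. On the log2 scale the receptor gene Ccr4 fell by 1.63, the acetylcholine receptor gene Chrna9 by 3.07 and the noncoding RNA gene Mirt1 by 3.03. Each did so beside a fall in SM&M1. Ccr4 too averaged less in PreDP (6.35) than in PostDP (9.42). The pseudogene Bambi-ps1 fell by 3.18 and was not called in SM&M1 (-1.46, adjusted p = 0.160), but the direct contrast did not separate the groups (adjusted p = 0.181).

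Rag1, of the recombinase, and Nebl varied more between arrays and were picked after their values were seen. Rag1 read 9.83, 8.85 and 11.20 in Tak1_Mut_SM&M1, 10.55, 6.93 and 7.68 in SM&M1 and 13.01, 12.07 and 11.84 in PostDP. Its difference from PostDP was -2.35 (adjusted p = 0.126) without Tak1 and -3.92 (adjusted p = 0.0141) with it. Nebl read 7.64, 8.05 and 9.12 without Tak1 against 8.27, 5.43 and 4.79 with it. In both genes replicate 3 of Tak1_Mut_SM&M1 and replicate 1 of SM&M1 were the highest of their groups. In bulk samples, fewer cells of a type and less RNA per cell cannot be told apart, so an intermediate level can be that of every cell or of a mixture.

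Cell cycle genes rose in both CD4 single-positive groups, by similar medians. Of 43 cell cycle and replication genes tested, 23 were called higher in Tak1_Mut_SM&M1 and 22 in SM&M1, and the median was 1.51 in each. With replicate 2 left out, the counts were 28 and 27 and the median without Tak1 was 1.66. The lowest adjusted p of these genes in the direct contrast was 0.269. Mki67, a marker of cycling cells, read 10.32, 11.27 and 11.60 without Tak1, 11.08, 10.34 and 10.31 with it, and 9.34, 7.36 and 7.13 in PostDP. Its rise was 3.12 (SE 0.56, adjusted p = 0.00388). The topoisomerase gene Top2a rose by 2.68, the thymidine kinase gene Tk1 by 3.01 and the mitotic kinase gene Cdk1 by 3.0. PostDP replicate 1 was the highest of its group for all 4 genes. Of the cyclin D and CDK inhibitor genes, Cdk4 rose by 0.98 and the inhibitor gene Cdkn1b fell by 1.08 on the log2 scale. The call of Cdk4 was lost without replicate 2 (adjusted p = 0.0868).

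Early genes induced by the T cell receptor were more often called lower than higher in both groups against PostDP, which were sorted as CD69+ cells. Of 38 tested, 13 were called lower and 2 higher without Tak1 (median -0.74), against 10 lower and 3 higher with it (median -0.53). The order of the lower calls turned round with replicate 2 left out, to 14 without Tak1 (median -0.54) and 18 with it. Ikzf2, which encodes Helios, read 10.68, 10.77 and 10.89 without Tak1, 11.45, 11.68 and 11.54 with it and 13.27, 13.27 and 13.09 in PostDP. The 3 groups did not overlap. It fell by 2.43 on the log2 scale (SE 0.16, adjusted p = 1.05e-06), further than in SM&M1 (direct difference -0.78, adjusted p = 0.0255). The phosphatase gene Dusp4 fell by 1.75, the repressor gene Gfi1 by 1.70 and Tox2 by 1.48 on the log2 scale, beside 2.09, 1.80 and 2.15 in SM&M1. With its probe sets averaged, Tox2 was not called without Tak1 (-0.86, adjusted p = 0.127). The nuclear receptor gene Nr4a3 fell by 1.28 and the transcription factor gene Irf4 rose by 2.41. Jun, an AP-1 subunit, read 6.50, 6.34 and 7.18 without Tak1, 10.86, 10.78 and 9.90 with it and 11.44, 8.5 and 8.11 in PostDP. Its direct difference was -3.84 (SE 0.79, adjusted p = 0.0280 in limma, and 0.0530 without replicate 2). Jun is also counted among the dissociation and stress genes below.

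**Figure D2:**
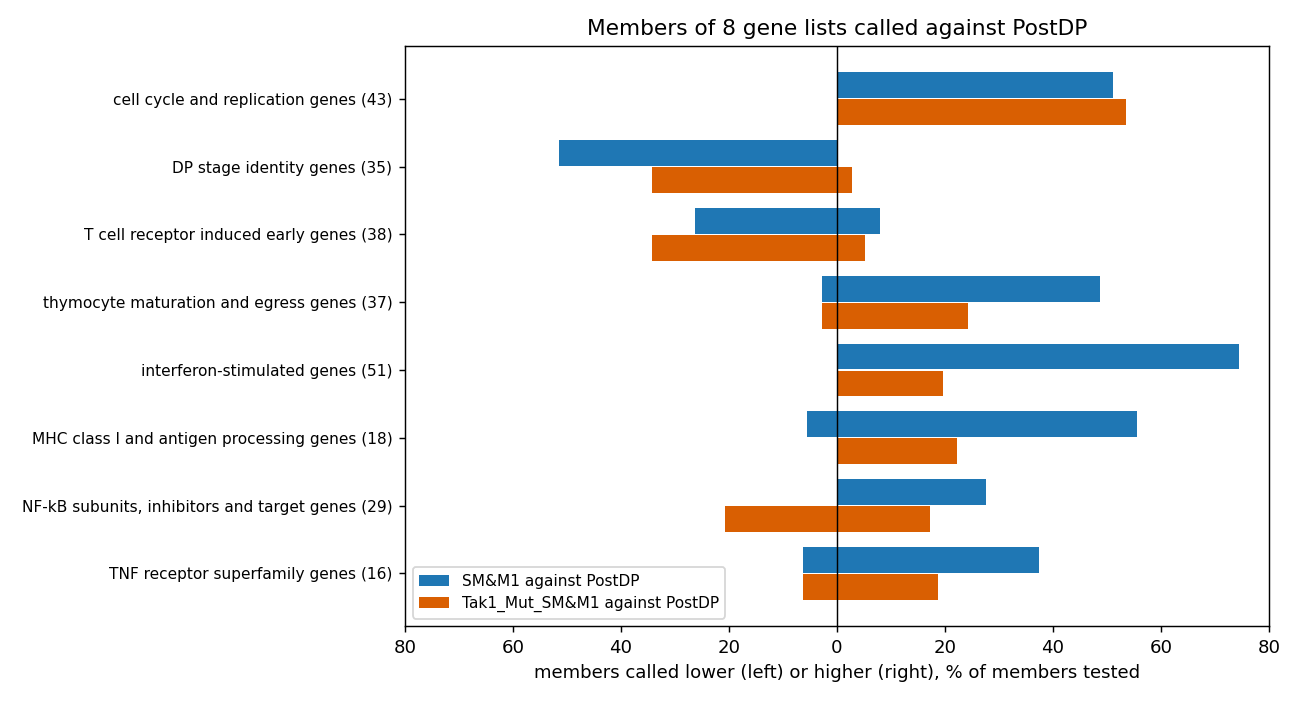
Members of 8 gene lists called lower (bars to the left) or higher (bars to the right) against PostDP, in % of the members tested (numbers in brackets), for SM&M1 in blue and Tak1_Mut_SM&M1 in orange. Cell cycle genes have nearly equal bars (22 and 23 of 43 called higher), while interferon-stimulated genes have 38 of 51 called higher in SM&M1 and 10 of 51 in Tak1_Mut_SM&M1.

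Of the gene lists, interferon-stimulated genes had the most members called lower without Tak1 in the direct contrast. Of 51 tested, 38 were called higher in SM&M1 against PostDP (median 1.30) and 10 in Tak1_Mut_SM&M1 (median 0.41). The direct contrast called 19 of them lower without Tak1 (median difference -0.80), and 26 with replicate 2 left out. In that fit 10 were called above PostDP and 1 below it. Ifit1, a tetratricopeptide protein that binds foreign RNA, read 9.38, 9.16 and 9.22 without Tak1, 11.39, 11.68 and 11.68 with it, and 9.79, 8.46 and 8.37 in PostDP. The Tak1-deficient arrays lay within the range of PostDP and below all of SM&M1. The direct difference was -2.33 (SE 0.34, adjusted p = 0.00409). Oasl2, of the oligoadenylate synthetase-like family, read 6.29, 7.91 and 8.10 against 9.94, 10.46 and 10.22 with Tak1 (-2.77, SE 0.42, adjusted p = 0.00472). Ifi27l2a read 11.11, 11.08 and 11.04 without Tak1 against 10.52, 9.18 and 9.18 in PostDP and 13.40, 13.26 and 13.92 in SM&M1. Its difference from PostDP was 1.45 (adjusted p = 0.0386), and the call was lost without replicate 2 (adjusted p = 0.0591). The GTPase gene Iigp1 and the kinase gene Cmpk2 had direct differences of -1.89 and -1.37.

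Not all antiviral genes had that pattern. Oas2 rose by 1.88 without Tak1 and 2.63 with it (direct difference -0.75, adjusted p = 0.294). Oas1b, Gbp2 and Trim25 rose by 1.03, 0.82 and 0.72 beside 1.17, 1.26 and 0.71. Irf9, a subunit of the interferon-activated transcription complex, rose by 0.55 against 1.30, and Parp14 by 0.91 against 1.80, both with a called direct difference (adjusted p = 0.0321 and 0.0470). Xaf1 depended on the probe set. The brighter one read 8.09, 9.78 and 9.76 without Tak1, 10.38, 10.07 and 9.99 in PostDP and 12.10, 12.12 and 12.19 in SM&M1. A second Xaf1 probe set rose by 4.20 without Tak1 and by 1.36 with it, so the direction of Xaf1 against SM&M1 is unsettled. Without replicate 2 the brighter Xaf1 probe set was called below PostDP (-1.22, adjusted p = 0.0499).

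Interferon-induced genes are often bound near their start by the ISGF3 complex at an interferon-stimulated response element, whose core is GAAANNGAA. The stretches of the 4 promoters below show this core in capitals, on either strand, for interferon-stimulated genes with a called direct difference. Ifit1 (-2.33), Ifit3 (-1.55), Ifih1 (-1.64) and Oas3 (-1.62) were picked after their values and sequences were seen. They are RefSeq sequences of build GRCm38.p6, 5′ to 3′ on the gene's strand, and lie before the annotated start.
Ifit1, chr19:34640765-34640828, plus strand: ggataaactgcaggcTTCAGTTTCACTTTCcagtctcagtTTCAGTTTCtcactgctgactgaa
Ifit3, chr19:34583359-34583450, plus strand: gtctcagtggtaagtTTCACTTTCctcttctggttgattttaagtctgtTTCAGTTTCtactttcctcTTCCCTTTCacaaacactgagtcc
Ifih1, chr2:62646344-62646382, minus strand: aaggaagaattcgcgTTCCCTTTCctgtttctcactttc
Oas3, chr5:120777705-120777749, minus strand: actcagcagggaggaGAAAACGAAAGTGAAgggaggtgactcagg
The Ifit1 and Ifit3 stretches hold 3 cores each, those of Ifit1 partly overlapping, and the Oas3 stretch holds 2 overlapping ones.

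Over all genes tested, 9651 had a promoter in the RefSeq table (250 bases before to 50 after the start), and 819 of them (8.49%) held the core on either strand. Of the 19 interferon-stimulated genes called lower in the direct contrast, 12 had such a promoter, and 6 of these (50%) held the core. Among rises that were smaller without Tak1, 18 of 57 promoters (31.6%) held it. Among rises also called without Tak1 and not smaller, 32 of 263 (12.2%) did. For the falls the shares were 1 of 14 (7.14%) and 6 of 113 (5.31%). A core of the NF-kB site, GGANNNNCC, stood in 6050 of the 9651 promoters (62.7%), in 34 of the 57 (59.6%) and in 162 of the 263 (61.6%). Of the NF-kB list, 19 of 23 promoters (82.6%) held it. Most promoters hold so loose a core, so near-equal shares do not tell whether NF-kB sites differ between these sets. These are matches of letters, with no test, and a match is not a bound site.

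**Figure D3:**
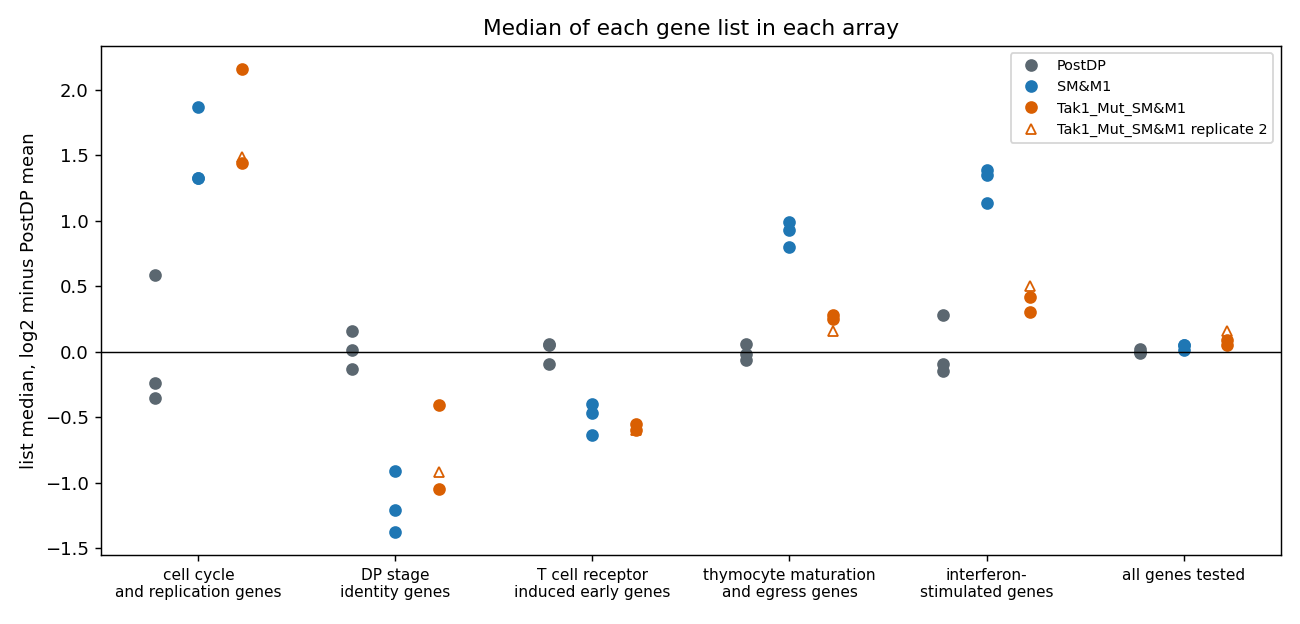
Median over the tested members of 5 gene lists, and over all 11871 genes, in each array, as log2 minus the PostDP mean of each gene (y axis), with Tak1_Mut_SM&M1 replicate 2 as an open triangle. Interferon-stimulated genes lie at 1.14 to 1.39 in SM&M1 and at 0.30 to 0.50 in Tak1_Mut_SM&M1, while the cell cycle medians of these groups overlap (1.33 to 1.87 and 1.44 to 2.16).

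Genes of late maturation and egress rose in part. Of 37 tested, 9 were called higher and 1 lower without Tak1 (median 0.28), against 18 and 1 with it (median 0.65). Without replicate 2 the counts for Tak1_Mut_SM&M1 were 10 and 4. The direct contrast called 8 lower, or 11 without replicate 2. Klf2, the transcription factor of thymic exit, read 10.11, 9.74 and 9.60 without Tak1, 10.87, 11.03 and 10.46 with it and 7.55, 7.74 and 7.82 in PostDP. It rose by 2.12 (SE 0.20, adjusted p = 3.38e-05) without Tak1, and the direct difference of -0.97 was called (adjusted p = 0.0261). S1pr1, the exit receptor and a KLF2 target, read 7.97, 5.71 and 7.69 without Tak1, 9.73, 9.81 and 9.41 with it and 7.46, 7.33 and 7.67 in PostDP. Its direct difference was -2.53 (SE 0.47, adjusted p = 0.0182), and -1.82 (adjusted p = 0.00569) without replicate 2, which was the lowest array.

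Slfn1, a Schlafen family gene of resting T cells, read 9.20, 7.27 and 8.75 without Tak1 and 10.88 to 11.52 with it (-2.73, adjusted p = 0.0235). The membrane protein genes Ms4a4b, Ms4a4c and Ms4a6b had direct differences of -1.66, -1.93 and -1.74, each with adjusted p at or under 0.00187. Ms4a6b was below PostDP without Tak1 (-0.77, adjusted p = 0.0477) and above it with Tak1 (0.97). In contrast Cd7, an immunoglobulin-family surface protein, rose by 3.52 without Tak1 from 5.18, 5.18 and 5.01 to 9.0, 8.07 and 8.86, though less than in SM&M1 (direct difference -1.60, adjusted p = 0.00157). Gimap4, a lymphocyte GTPase gene, rose by 1.63 beside 1.69, and the integrin chain gene Itgb7 by 1.52 beside 1.98. The homing receptor gene Ccr8 read 7.55, 8.02 and 7.01 without Tak1, between 4.43 to 5.09 in PostDP and 9.19 to 9.62 in SM&M1, and its direct difference of -1.89 was called (adjusted p = 0.00154).

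The NF-kB list divided. Of 29 tested members, 5 were called higher and 6 lower without Tak1 (median -0.19), against 8 higher with it (median -0.06). Without replicate 2 the counts for Tak1_Mut_SM&M1 were 4 and 8. The 5 risers were Ccr7, Il7r, Irf4, Irf1 and Bcl3. Irf1 lost its call without replicate 2 (adjusted p = 0.0660). Bcl3, an atypical IkB protein, read 8.24, 8.30 and 7.22 against 5.72, 6.17 and 6.47 in PostDP and 9.51, 9.82 and 9.61 in SM&M1, so it rose by 1.80 (adjusted p = 0.00104) with a called direct difference of -1.73. Those called lower included the inhibitor genes Nfkbia, Tnfaip3 and Nfkbib and the subunit gene Relb. Nfkbia, which encodes IkBα, read 13.01, 10.69 and 13.03 without Tak1, 13.72, 13.90 and 14.13 with it and 14.13, 13.94 and 13.93 in PostDP. Its fall was 1.75 on the log2 scale (adjusted p = 0.0256) with replicate 2 and 0.98 (adjusted p = 0.00134) without. Tnfaip3, which encodes A20, fell by 1.40, Relb by 0.97, Nfkbib by 0.60 and the growth arrest gene Gadd45b by 2.42 on the log2 scale. The direct contrast called 4 of the 29 lower (Bcl3, Birc3, Nfkbib and Relb), and 8 without replicate 2.

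Some receptors of the TNF superfamily rose less without Tak1. Of 16 TNF receptor superfamily genes tested, 3 were called higher and 1 lower without Tak1, against 6 and 1 with it, and the direct contrast called 4 lower in each fit. Tnfrsf4, which encodes OX40, read 10.67, 10.65 and 10.29 without Tak1, 11.70, 11.70 and 11.97 with it and 9.28, 9.09 and 9.0 in PostDP, and the 3 groups did not overlap. It rose by 1.41 (SE 0.18, adjusted p = 0.000486) with a called direct difference of -1.25 (adjusted p = 0.00389). Tnfrsf18, which encodes GITR, rose by 0.96 against 2.14. Tnfrsf1b, the type 2 TNF receptor, read 9.54, 9.50 and 9.58 against 9.25, 9.49 and 9.32 in PostDP and 10.33, 10.47 and 10.56 in SM&M1 (direct difference -0.91, adjusted p = 0.00389). Relt rose by 0.72 beside 0.54, and Cd27 fell by 0.66 beside 1.03 on the log2 scale. Among 23 genes of the TAK1, TAB and IKK pathway itself, Map3k7 and the ubiquitin-conjugating enzyme gene Ube2n (-0.60) were called lower and Map3k14, which encodes the kinase NIK of the alternative NF-kB pathway, higher (0.90, adjusted p = 0.0218). With probe sets averaged, neither Ube2n (-0.11, adjusted p = 0.639) nor Map3k14 (0.74, adjusted p = 0.130) was called, and the second Ube2n probe set differed by 0.38. In the fit without replicate 2, 3 of the 23 were called higher and 2 lower. Of all genes tested, 7.16% were called higher and 3.72% lower with all arrays, and 10.1% and 4.86% in that fit.

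In the MHC class I pathway, 4 of 18 genes tested were called higher without Tak1 and 10 with it. With replicate 2 left out, 5 were called higher and 1 lower without Tak1, against 12 and 1. Besides B2m the 4 were H2-K1 (1.63), its transactivator Nlrc5 (1.62) and the peptide loading gene Tapbp (0.69), whose call was lost when its probe sets were averaged (0.40, adjusted p = 0.192). The other H2-K1 probe sets rose by 0.36, 1.31 and 1.59 without Tak1 and by 1.1, 3.25 and 2.21 with it. Nlrc5 read 11.90, 11.90 and 11.48 without Tak1, 11.94, 12.21 and 11.98 with it and 10.30, 10.01 and 10.11 in PostDP. The direct contrast called 2 genes of the list lower, the immunoproteasome gene Psmb10 (-0.79, adjusted p = 0.0357) and the proteasome activator gene Psme1 (-0.73, adjusted p = 0.0458). In the fit without replicate 2 it called 4, and Psme1 was not among them (adjusted p = 0.0550). Psmb10 read 11.43, 11.46 and 11.39 without Tak1, within the PostDP range of 11.24 to 11.60.

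Some genes differed from SM&M1 in ways other than a smaller rise. Gdpd3, a lysophospholipase gene, read 12.04, 12.71 and 11.98 in Tak1_Mut_SM&M1, 7.70, 7.65 and 7.12 in PostDP and 7.86, 8.58 and 8.29 in SM&M1. It had the largest rise of the named genes (4.75, SE 0.27, adjusted p = 5.67e-07) and a direct difference of 4.0 (adjusted p = 7.41e-06). Rap1gap2, H2-T3 and Prag1 were also called above both groups, by 2.29, 1.27 and 2.35 over PostDP, though H2-T3 and Prag1 rose by 0.97 and 1.16 when all their probe sets were averaged, and H2-T3 was then not called (adjusted p = 0.141). The direct call of Prag1 was lost without replicate 2 (adjusted p = 0.0615). Pym1, a factor of the exon junction complex, read 6.64, 6.15 and 7.31 against 8.35 to 8.91 in PostDP and was called below both groups (-1.96 against PostDP). Golt1b (-2.27) also was, but a second probe set of Golt1b differed by -0.04. Cd44, an adhesion receptor, read 9.76, 9.23 and 9.67 without Tak1, 11.32, 11.30 and 10.79 with it and 10.25, 10.36 and 10.34 in PostDP, with a direct difference of -1.58 (SE 0.20, adjusted p = 0.00157).

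Among the named genes of the 16 falls that were smaller without Tak1, the largest direct difference was that of Lrrn4. Lrrn4, a leucine-rich repeat gene, read 8.03, 7.85 and 8.28 without Tak1, 6.05, 5.38 and 6.09 with it and 7.44, 7.42 and 7.16 in PostDP (direct difference 2.21, SE 0.26, adjusted p = 0.00119). The Toll-like receptor gene Tlr12 differed from PostDP by -1.73 without Tak1 and -3.70 with it, but another Tlr12 probe set had the opposite order (-1.33 and -0.11). The actin-binding protein gene Coro2b fell by 0.78 and 1.95 on the log2 scale, and with its probe sets averaged it was not called without Tak1 (adjusted p = 0.116). Zscan29, Tmem151b, Pipox and Zfp286 fell in SM&M1 by 1.05, 1.53, 1.12 and 1.01 on the log2 scale and were not called against PostDP without Tak1. On the other probe sets of Zfp286 both groups lay below PostDP, by -0.47 and -0.33 without Tak1 and -0.82 and -0.89 with it. The direct difference of Pipox had an adjusted p of 0.0421, and of 0.0615 without replicate 2. On its brighter probe set Dmwd differed from PostDP by -1.48 without Tak1 and -3.15 with it, and on another by -0.18 and -1.55.

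**Figure D4:**
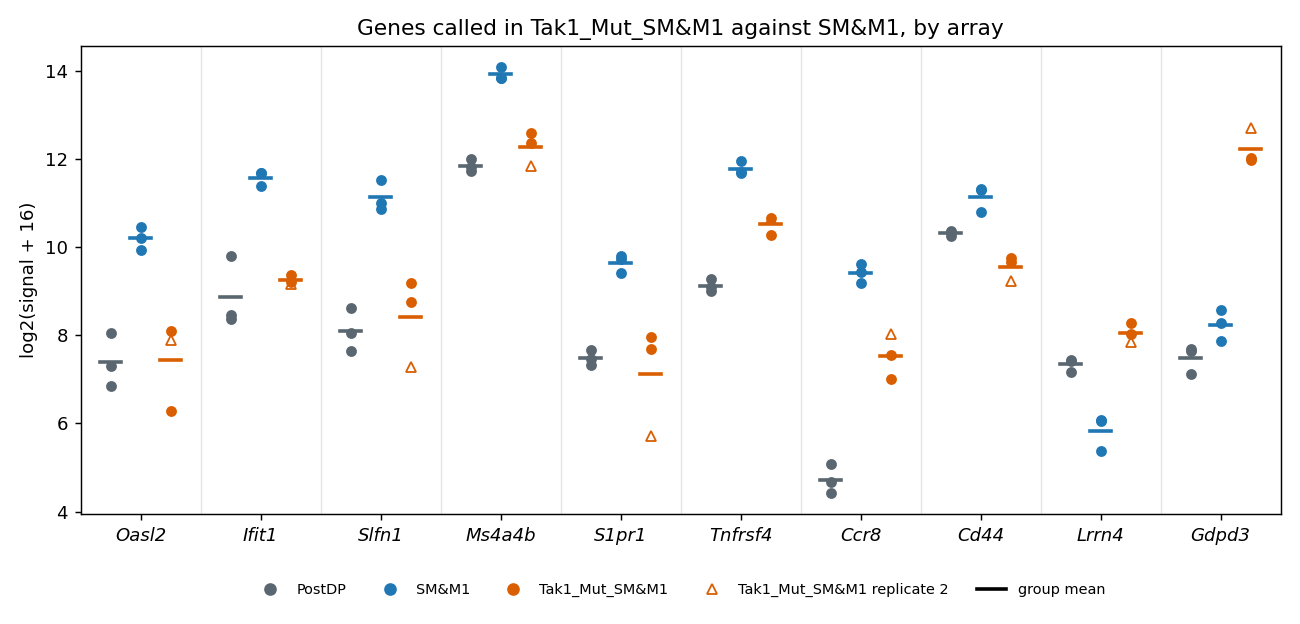
Level of 10 genes called in Tak1_Mut_SM&M1 against SM&M1, as log2(signal + 16) on the y axis, 1 point for each array and a bar for each group mean of 3 arrays, with Tak1_Mut_SM&M1 replicate 2 as an open triangle. Oasl2, Ifit1, Slfn1 and S1pr1 overlap PostDP in the Tak1-deficient arrays, Tnfrsf4 and Ccr8 lie between the other groups, and Gdpd3 lies above both.

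The endpoints of thymic maturation gave a list of stage genes from arrays outside this comparison. Of 1075 genes called at least 2-fold higher in M2 than in PreDP, 300 (27.9%) were called higher and 26 (2.42%) lower in Tak1_Mut_SM&M1 than in PostDP, with a median of 0.50 beside 0.10 over all genes. SM&M1 against PostDP called 490 of them higher (45.6%, median 0.77). The direct contrast called 96 of the 1075 lower and 2 higher without Tak1. Of 814 genes lower in M2 than in PreDP, 166 (20.4%) were called lower and 17 (2.09%) higher without Tak1 (median -0.34), against 258 lower with it (median -0.58). The line differed between the ends of that list as well. With replicate 2 left out and the list drawn again from that fit, it was 1138 and 843 genes long, with 382 of the first called higher and 182 of the second lower. With the list held at 1075 and 814 genes, the 300 fell to 190 without PostDP replicate 3, and the 166 to 108 and 100 without PostDP replicate 1 or 2.

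Markers of other cells moved with some arrays. The summed level of 23 macrophage and monocyte markers was 12.26 to 13.58 in Tak1_Mut_SM&M1, 13.28 to 13.90 in SM&M1 and 11.11 to 11.30 in PostDP, and 1 of 16 tested was called higher without Tak1, the protease gene Ctss (1.72). Ctss alone read 12.96 to 13.14 in SM&M1, and so made up much of the sum there. It read 10.21 to 11.64 in Tak1_Mut_SM&M1. The median marker lay 0.01, 1.65 and 1.16 above PostDP in Tak1_Mut_SM&M1 replicates 1, 2 and 3, and 1.01, -0.32 and 0.13 from it in SM&M1. In its highest arrays Lyz1 reached 10.39 in Tak1_Mut_SM&M1 and 10.13 in SM&M1, from at most 5.52 in PostDP. C1qa and C1qb reached 6.99 and 8.06 in Tak1_Mut_SM&M1 and 5.19 and 7.06 in SM&M1. In PostDP they were at most 4.67 and 6.02. Other members went the other way. Ccr2, Hmox1 and Fcgr3 were at most 6.81, 7.23 and 7.16 in Tak1_Mut_SM&M1, below their highest PostDP arrays (7.17, 7.37 and 7.24). The 16 markers of NKT and innate-like T cells lay 0.17, 1.06 and 1.18 above PostDP without Tak1 and 1.66, -0.28 and -0.21 from it with Tak1, with summed levels of 11.91 to 12.97 without Tak1, 11.83 to 12.95 with it and 12.55 to 12.66 in PostDP. Of 14 of them tested, Il2rb was called higher and Slamf6 lower without Tak1. Of 13 regulatory T cell markers tested, 6 were called higher and 1 lower without Tak1 (median 0.73), against 7 and 1 with it (median 1.26), and their summed level was 13.99 to 14.06, 14.33 to 14.69 and 13.77 to 13.95 in Tak1_Mut_SM&M1, SM&M1 and PostDP. Their defining gene Foxp3 was 6.38 ± 0.35 (SD, n = 3) without Tak1, 6.33 ± 0.22 with it and 6.26 ± 0.44 in PostDP. Ikzf2 alone read 13.09 to 13.27 in PostDP, and so made up much of the summed regulatory T cell level there. The 6 markers of γδ T cells lay 0.60, 1.26 and 0.86 above PostDP in Tak1_Mut_SM&M1 replicates 1, 2 and 3 and 0.75, 0.48 and 0.22 above it in SM&M1, with summed levels of 11.14 to 11.19, 10.19 to 10.95 and 9.99 to 10.65 in Tak1_Mut_SM&M1, SM&M1 and PostDP. Cd163l1 and Sox13 of these 6 were called higher without Tak1, and both calls were lost without replicate 2. Median thymic epithelial, dendritic and B cell markers lay at 1.04, 0.93 and 0.74 from PostDP in Tak1_Mut_SM&M1 replicate 2. They lay at 0.06, 0.02 and -0.22 in replicate 1 and at -0.0, 0.25 and 0.01 in replicate 3. In SM&M1 replicate 1, the highest of its group, they lay at 0.58, 0.88 and 0.38. H2-Aa reached 11.13 in Tak1_Mut_SM&M1 and 10.80 in SM&M1 from at most 8.24 in PostDP. The dendritic cell markers Batf3 and Irf8 were at most 5.85 and 8.11 in Tak1_Mut_SM&M1, below their highest PostDP arrays (6.28 and 8.16). Of 20 dissociation and stress genes tested, 1 was called higher and 5 lower without Tak1, and their median lay at -0.45, -0.63 and -0.49 from PostDP in the 3 arrays. Without replicate 2, 5 were still called lower and Ddit3 was no longer called higher. The direct contrast called 5 of the 20 lower than in SM&M1, and 2 without replicate 2. Over all genes tested it called 1.26% and 1.96% lower. Jun and Btg2, which other gene lists also hold, were among the stress genes called lower with all arrays. The heat shock genes Hspa1a and Hspa1b rose by 2.34 and 3.11 in SM&M1 and differed by -0.21 and -0.29 without Tak1. The part of such cells or of handling in the results was not tested. The interferon-stimulated medians were 0.42, 0.50 and 0.30 and the cell cycle medians 1.44, 1.49 and 2.16 in Tak1_Mut_SM&M1 replicates 1, 2 and 3, and the summed macrophage level in those arrays was 12.26, 13.12 and 13.58.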

How the data were processed

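The authors deposited 1 table of linear probe set signal intensity values from Affymetrix mouse arrays (45101 probe sets, 15 arrays, 5 groups of 3), of RNA amplified once per the labels' protocols. In the deposited values, each array's mean intensity is 500.0 once the top 2% and bottom 2% are dropped. The summarising algorithm is not given in the sources used here. Such scaling fixes no median, so an array with a different signal distribution shifts against the others.

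Probe sets were named from the platform annotation: 34945 had 1 gene, 932 several, 9160 were unnamed and 64 were controls. The brightest probe set stood for each of 18193 genes. Genes above the array median in at least 3 arrays (11871) were tested on log2(signal + 16) with limma 3.58.1 (R 4.3.3), all 15 arrays in 1 model with 10 residual degrees of freedom and Benjamini-Hochberg adjustment. The script was tested on simulated data. The number of arrays limits the precision.

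The members and gene lists were chosen with earlier results of these data known. Named genes were the 8 largest rises and falls called with and without replicate 2, up to 4 called members of each list, the 6 rises and falls largest in both comparisons with PostDP, the 8 rises and falls with the largest opposite direct difference, the 4 called in each direction without Tak1 and in the direct contrast but not in SM&M1, and the checks of Tak1, sort and sex. Other genes named were chosen after their values were seen. Promoters are RefSeq sequences of GRCm38.p6. Alternatives covered the pseudocount, dim-gene filter, scaling, probe set rule, variance model, array weights, replicate block, groups fitted and each array left out. Those on the M2 and PreDP lists were chosen after seeing the data.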

Additional observations from a re-analysis of the deposited data

Results flagged for a closer look

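Among the genes named by the rules above, 5 had Tak1_Mut_SM&M1 and SM&M1 arrays on opposite sides of all PostDP arrays. Their direct contrasts were called by limma. Other genes tested were not counted here, so 5 is not a total over all genes. Map3k7, the targeted gene, differed by -5.03 on the log2 scale. Cd44 differed by -1.58, with all 3 Tak1-deficient arrays below PostDP and all 3 SM&M1 arrays above it. Lrrn4 differed by 2.21, the other way round. Xaf1 differed by -2.93 on its brighter probe set, and a second probe set differed by 2.84. Zfp286 differed by 1.5 on the probe set used, which lay 0.49 above PostDP without Tak1, while its other probe sets lay on the other side of PostDP without Tak1, at -0.47 and -0.33.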

How the results depend on the processing

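With just the compared groups in the fit, 176 genes were called in Tak1_Mut_SM&M1 against PostDP, 27 strong changes differed without Tak1, and 63 of the M2-high and 40 of the M2-low genes were called. With the replicate number as a block (replicate block) in that fit, limma called 0 genes (1636 at an unadjusted p under 0.05), 0 differing changes (226), 0 M2-high (337) and 0 M2-low genes (201), and 231 changes were shared. With all groups the replicate block gave 828 higher and 415 lower. Same-numbered PostDP and Tak1_Mut_SM&M1 arrays deviated from their group means with correlations of -0.017, -0.039 and -0.061. For SM&M1 and Tak1_Mut_SM&M1 these were -0.174, -0.192 and -0.244, and for PostDP and SM&M1 -0.01, 0.124 and 0.026. With 3 arrays in a group, such values cannot show whether same-numbered arrays shared a batch. Centring each array shifted the median difference over all genes by -0.11, leaving 606 calls, 61 differing changes and 172 M2-high genes. Array weights gave 1957 calls and 152 differing changes. Leaving out 1 array gave 674 to 1776 calls, 323 to 588 shared changes, 38 to 134 differing changes, 190 to 375 M2-high and 100 to 186 M2-low genes, over the lists drawn with all arrays. Xaf1 reversed to 1.63 when probe sets were averaged. Of 95 named genes called, 68 kept the call under centring, 82 under probe set averaging, 84 without Tak1_Mut_SM&M1 replicate 2, 69 to 76 without a PostDP array, 32 with just the compared groups and 0 with the block added to that fit. The causes were not tested. Genes near background are limited by the arrays' noise.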
